A study of Mastomys natalensis with 3 samples.

Results

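Solute carriers are the membrane proteins that move nutrients, ions, vitamins, metabolites and drugs across the plasma membrane and the membranes of organelles, either by facilitated diffusion or coupled to a gradient of sodium, protons or another solute. They are grouped into numbered families (Slc and Slco symbols) that mostly share a substrate. In the stomach they are known for the ion exchange that accompanies acid secretion, for loading amines into the granules of endocrine cells and for supplying dividing or secreting cells with fuel and amino acids. The genes described here were chosen by name: every non-control probe set whose only platform symbol starts with Slc or Slco and a digit, with Slc18a2 and Slc4a2 left out of the set. That gave 124 genes, measured by 184 probe sets, of 4736 singly named genes and 8740 non-control probe sets in all. Of the 124 genes, 82 had 1 probe set and 42 had 2 or more.

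RNA came from gastric cells of the rodent Mastomys natalensis, which is known to develop gastric carcinoids, and was hybridised to an Affymetrix rat U34 array. The labels describe enrichment for ECL (enterochromaffin-like) cells, endocrine cells of the oxyntic mucosa that store histamine. Animals of 1 group had received loxtidine, a blocker of the histamine receptor on acid-secreting cells, for 8 weeks and animals of another for 16 weeks, and those of the last had a gastric ECL cell carcinoid that arose spontaneously. The sources used here do not give age, sex or how many animals each sample came from, and no untreated group was analysed here. With 1 array per group there is no replicate check, so no p-value or standard error is given and every difference describes these arrays.

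Values below are normalized intensities, quantile-normalized over the 3 arrays, and are given in the order 8 weeks, 16 weeks, carcinoid. The floor was 12.4, the median of all normalized non-control values. A value under it was raised to it before a difference was taken, so a fold with 1 array under the floor is a bound ("at least"). No fold is given where both were under it. A gene is represented by its brightest probe set, and each probe set is compared only with itself, since rat probes can bind Mastomys RNA unevenly. Each array had 8799 probe sets, with median deposited intensities of 10.1, 13.1 and 13.8. The 3' to 5' signal ratio was 8.95, 1.43 and 2.31 for GAPDH and 16.1, 6.71 and 11.7 for actin, highest at 8 weeks for both. The source field of the 8-week sample alone named ECL cells rather than gastric mucosa. Each array also carried its own lot label, and group and lot cannot be told apart. Of 12 ECL and neuroendocrine markers on the array, 8, 8 and 6 reached the floor (summed intensity 429.7, 469 and 308). Hdc, the histamine-making enzyme that defines ECL cells, was under it on every array (4.43, 4.77 and 3.2), which may be low RNA or a rat probe that binds the Mastomys transcript poorly. The chief cell marker Pgc (5625, 4449 and 3666) and the parietal cell marker Atp4a (932, 1449 and 906) were over the floor on every array. Of 9 leukocyte markers 9, 5 and 5 reached the floor (summed intensity 357, 195 and 144), and of 9 enterocyte markers 5, 6 and 4 (262, 177 and 166). Both sums were highest at 8 weeks, but the enterocyte markers were mixed. Apoc3 (87.1, 4.3 and 10.2), Lct and Anpep were highest at 8 weeks, while Apoa1 (4.43, 25.3 and 30.3) and Alpi (31.5, 40.8 and 40.2) were lowest there. Of 12 pancreatic acinar markers 7, 9 and 6 reached it (1368, 1359 and 572), of 7 smooth muscle markers 3, 5 and 4 (93, 162 and 182) and of 3 chief cell markers 2, 2 and 3 (9294, 9638 and 7710.1). Their part in the carriers' values was not tested.

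Many solute carriers gave dim signals, as did genes in general. Of the 124 genes, 50 reached the floor on all 3 arrays, 25 on 2, 21 on 1 and 28 on none. The 96 that reached it somewhere made up 77.4%, against 77.2% of all singly named genes. A stricter floor of 30, the 75th percentile, was reached by 48, 36 and 37 of them on the 8-week, 16-week and carcinoid arrays (38.7%, 29% and 29.8%, against 30.3%, 30.3% and 30.6% of all genes). It was reached by 24 on every array (19.4%, against 18.2%). A value of 100 or more was found for 7, 2 and 3 (5.65%, 1.61% and 2.42%, against 6.55%, 6.33% and 6.29%). Of 15 control probe sets for bacterial transcripts, 2, 1 and 2 also reached the lower floor and 1, 0 and 0 the stricter one, so a value just above 12.4 is not safely told from background.

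**Figure D1:**
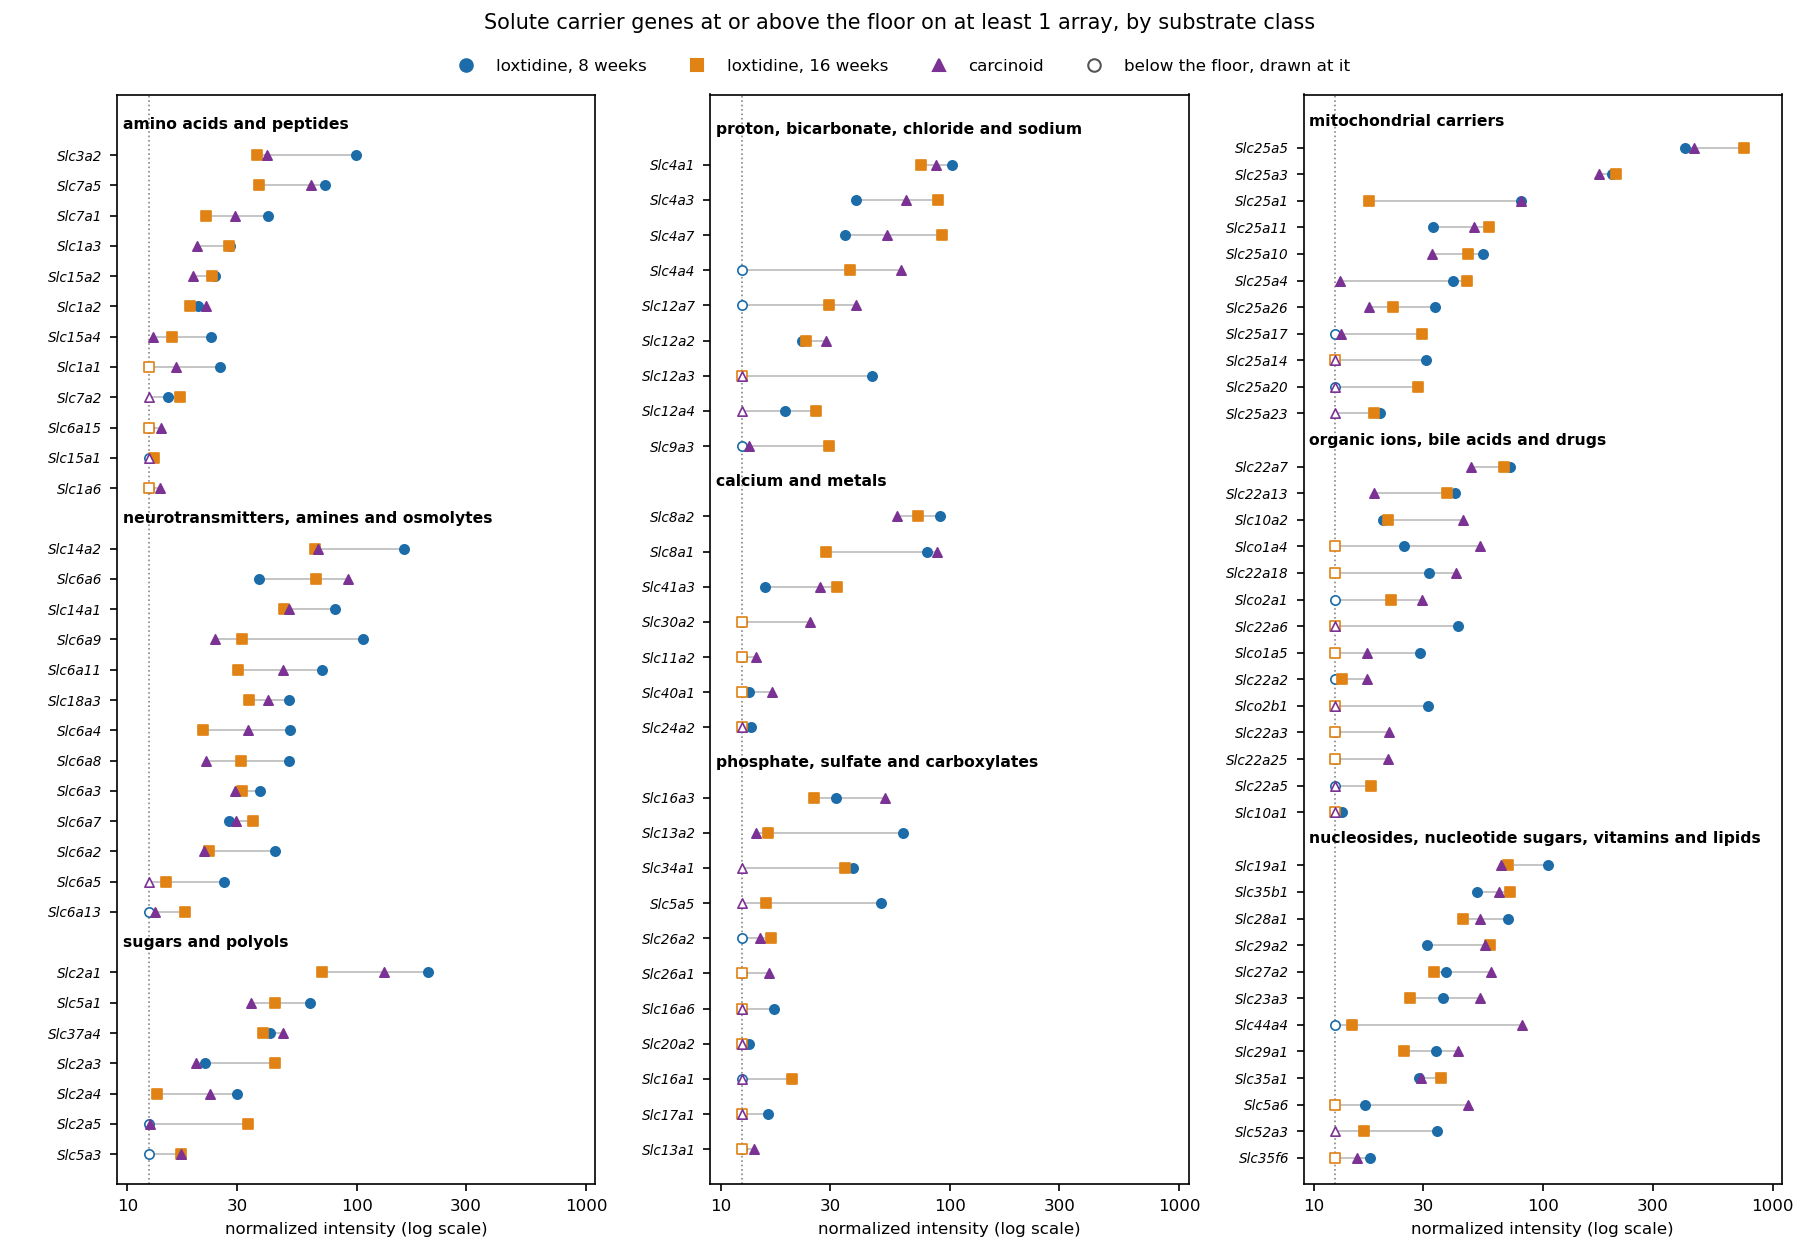
Normalized intensity (log axis) of the 96 solute carrier genes at or above the floor of 12.4 (dotted line) on at least 1 array, by substrate class, with 1 point per array and a grey line over their range. Open marks are values below the floor, drawn at it, where they can overlap; most points lie under 100.

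The error that can be measured without replicates is the disagreement between probe sets of a gene. Over all genes with 2 or more probe sets measured on both arrays, the brightest 2 were compared. Their root mean square disagreement, divided by the square root of 2, gave the spread of a single probe set. That spread was 0.80 on the log2 scale between 16 and 8 weeks (410 genes). It was 0.82 between the carcinoid and 8 weeks (395 genes) and 0.62 between the carcinoid and 16 weeks (457 genes). For the solute carriers alone it was 0.68 (9 genes), 0.91 (13 genes) and 0.53 (9 genes). A 2-fold difference, 1 on that scale, is thus little larger than the spread of a single probe set in the comparisons with the 8-week array. The 2 probe sets of a gene lay over 1 apart in 34.4%, 39.5% and 25.6% of all genes so compared. Among the carriers this held for 3 of 9, 6 of 13 and 2 of 9. The spread contains no variation between animals.

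The comparison of 16 with 8 weeks of loxtidine asks what longer acid blockade goes with. Among differences measured on both arrays, the carriers furthest below their 8-week value at 16 weeks were the mitochondrial citrate carrier Slc25a1 (4.62-fold lower), the dicarboxylate transporter Slc13a2 (3.86-fold lower), the glycine transporter Slc6a9 (3.33-fold lower) and the iodide transporter Slc5a5 (3.17-fold lower). Among the bounds, Slc12a3 was at least 3.7-fold and Slc22a6 at least 3.41-fold lower. On the higher side the measured differences were those of the bicarbonate transporters Slc4a7 (2.66-fold) and Slc4a3 (2.3-fold), of Slc41a3 (2.07-fold) and of Slc2a3 (2.03-fold). The bounds were at least 2.94-fold for the bicarbonate transporter Slc4a4, 2.7-fold for the fructose transporter Slc2a5, 2.39-fold for both Slc9a3 and Slc12a7, 2.38-fold for Slc25a17 and 2.3-fold for Slc25a20. Of 88 carriers at or above the floor on at least 1 of the pair, 10 were at least 2-fold higher at 16 weeks (11.4%, against 13.9% of 3345 genes) and 19 at least 2-fold lower (21.6%, against 12.9%). Their median log2 difference was -0.15, and 0.00 over all genes. The direction of that balance depended on scaling. In the deposited intensities 14 stood higher (16.3%, against 22.7% of all genes) and 9 lower (10.5%, against 6.32%). As after normalization, the carriers' share lay under that of all genes for higher and over it for lower. The deposited median was 0.18 for carriers and 0.38 for all genes. In both scalings the carriers' median lay under that of all genes, and no test was made of that gap. These are bulk samples, in which fewer cells of a type and less RNA per cell cannot be told apart.

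Between carcinoid and 8 weeks the furthest carriers were the choline transporter-like gene Slc44a4 (at least 6.49-fold higher in the carcinoid), Slc4a4 (at least 4.94-fold higher), Slc6a9 (4.36-fold lower) and Slc13a2 (4.34-fold lower). For the vitamin transporter Slc5a6 the probe sets pointed in opposite directions. The brighter gave a carcinoid value 2.83-fold above 8 weeks, and the other gave one 1.76-fold below. The potassium-chloride cotransporter Slc12a7 was at least 3.13-fold higher in the carcinoid. Slc5a5 was at least 4.02-fold lower and the adenine nucleotide carrier Slc25a4 3.09-fold lower. Of 92 carriers compared, 8 were at least 2-fold higher in the carcinoid (8.7%, against 14.6% of 3370 genes) and 16 at least 2-fold lower (17.4%, against 13.7%), with a median of -0.12 against -0.02 over all genes. As deposited 18 were higher (19.6%, against 26.4% of all genes) and 9 lower (9.78%, against 5.91%), and the median was 0.26 against 0.45. This comparison and the one before share the 8-week array, so a high or low value on that array enters both.

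Between carcinoid and 16 weeks, the pair without the 8-week array, the furthest carriers were Slc44a4 (5.48-fold higher in the carcinoid), Slc25a1 (4.62-fold higher), the organic anion transporter Slco1a4 (at least 4.27-fold higher) and Slc5a6 (at least 3.8-fold higher). Slc25a4 was 3.57-fold lower, Slc22a18 at least 3.36-fold higher and the sodium-calcium exchanger Slc8a1 3.06-fold higher. The phosphate transporter Slc34a1 was at least 2.8-fold lower and Slc2a5 2.67-fold lower. Of 87 carriers compared, 9 were at least 2-fold higher (10.3%, against 9.41% of 3295 genes) and 9 at least 2-fold lower (10.3%, against 9.29%). Both shares lay near the background. The median was 0.01 for the carriers and for all genes, and normalizing these arrays without the 8-week array left the counts at 9 and 9.

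**Figure D2:**
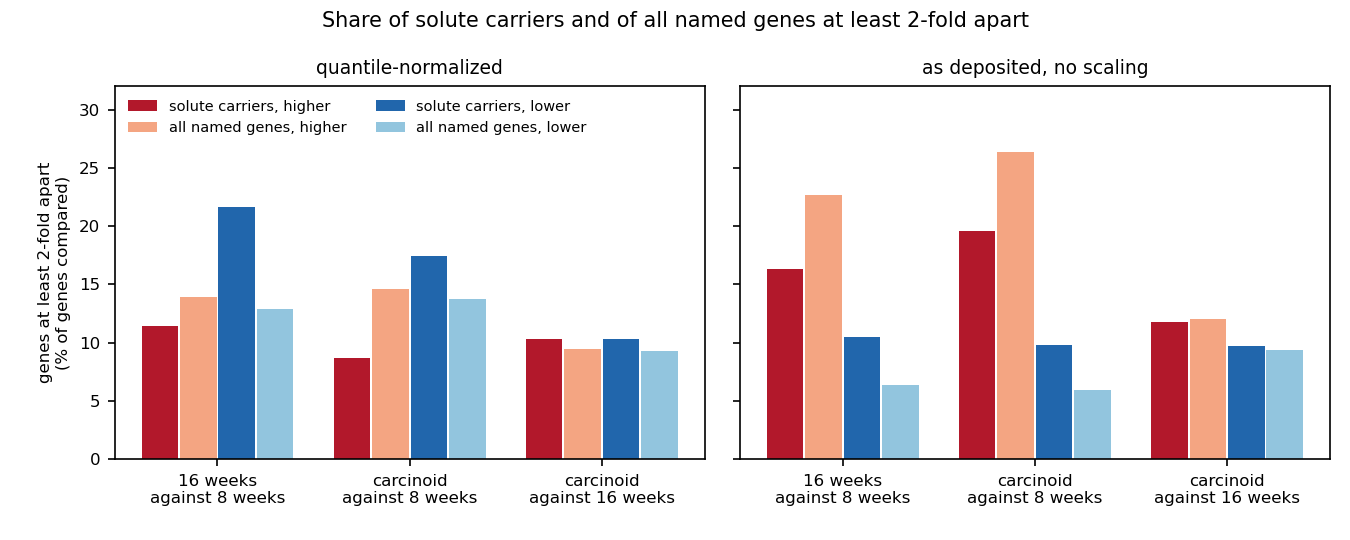
Percentage of the genes compared that were at least 2-fold higher or lower on the first-named array of each pair, for the solute carriers (dark bars) and all singly named genes (light bars), after quantile normalization (left) and as deposited (right). After normalization more carriers were lower than higher in both comparisons with 8 weeks (19 against 10 and 16 against 8), and as deposited more were higher (14 against 9 and 18 against 9). As deposited more of all genes were higher too (22.7% against 6.32% and 26.4% against 5.91%).

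Amino acid and peptide transporters comprised 17 genes, of which 7 reached the floor on every array and 5 on none. By brightest probe set, none of this class was at least 2-fold higher in any comparison. Those at least 2-fold lower were 2 of 10 (16 against 8 weeks), 1 of 11 (carcinoid against 8 weeks) and 0 of 12 (carcinoid against 16 weeks). Of all genes 13.9%, 14.6% and 9.41% were higher, and 12.9%, 13.7% and 9.29% lower. Slc3a2, the heavy chain that pairs with light-chain amino acid exchangers and carries them to the cell surface, read 98.9, 36.7 and 40.8. Its signal was highest at 8 weeks, 2.7-fold above 16 weeks and 2.43-fold above the carcinoid. Its other probe set read 14.3, 13 and 36.9, highest in the carcinoid (2.58-fold above 8 weeks and 2.84-fold above 16 weeks). The probe sets of Slc3a2 thus disagreed in direction between carcinoid and 8 weeks. Slc7a5, a light-chain partner of Slc3a2 that imports large neutral amino acids, read 72.4, 37.5 and 63.1 and was lowest at 16 weeks, by under 2-fold. Slc7a1, an importer of arginine and lysine, read 40.9, 22.1 and 29.3. It too was lowest at 16 weeks on its brightest probe set, while its other probe sets reached the floor only in the carcinoid.

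The glutamate transporter Slc1a1 read 25.3, 4.3 and 16.2. It was at least 2.04-fold lower at 16 than at 8 weeks, and its other probe sets were under the floor throughout. The glutamate transporters Slc1a2 (20.4, 18.7 and 22.1) and Slc1a3 (27.9, 27.8 and 20.1) stayed within 2-fold on their brightest probe sets. The peptide transporters Slc15a2 (24, 23.3 and 19.4) and Slc15a4 (23.1, 15.6 and 12.9) did as well. Another Slc1a2 probe set read 18.6, 3.03 and 25.1, at least 2.02-fold higher in the carcinoid than at 16 weeks. The intestinal peptide transporter Slc15a1, the arginine transporter Slc7a2, Slc1a6 and Slc6a15 touched the floor on 1 or 2 arrays with values of 17 or less. The class median was -0.34 for 16 against 8 weeks, -0.31 between carcinoid and 8 weeks and 0.16 between carcinoid and 16 weeks, an order kept for the medians below. As deposited it was -0.01, 0.04 and 0.28, so that the second of these changed sign.

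Transporters of neurotransmitters, amines and osmolytes comprised 16 genes, and 11 of them reached the floor on every array (68.8%, against 36.9% of all genes). Of the 13 over the floor on any array, 10 had their highest value at 8 weeks after normalization and 6 as deposited. After normalization the other classes ranged from 2 of 9 (protons and bicarbonate) to 7 of 12 (amino acids). The share over all genes was not counted. Slc6a9, which takes up glycine, read 106, 31.7 and 24.2, a signal that was high at 8 weeks and close to equal on the other arrays. The urea transporter Slc14a2 read 160.4, 65.8 and 67.8 and was also highest at 8 weeks, 2.44-fold lower at 16 weeks and 2.37-fold lower in the carcinoid. Its other probe set, like that of Slc6a2 and Slc6a3, was under the floor on every array. The second urea transporter, Slc14a1, read 80.3, 48.3 and 50.8. Its other probe set read 3.77, 4.77 and 21.9, over the floor in the carcinoid alone. The probe sets of Slc14a1 thus had opposite directions between carcinoid and 8 weeks.

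Among the amine carriers, the serotonin transporter Slc6a4 read 51.1, 21.4 and 33.6 and was 2.39-fold lower at 16 than at 8 weeks. A second Slc6a4 probe set read 12.4, 5.57 and 16.5, near or under the floor. The GABA transporter Slc6a11 read 70.5, 30.3 and 47.6 and was 2.33-fold lower at 16 weeks. The noradrenaline transporter Slc6a2 read 44, 22.7 and 21.5 and was 2.04-fold lower in the carcinoid than at 8 weeks. The dopamine transporter Slc6a3 (38, 31.5 and 29.5) and the proline transporter Slc6a7 (27.7, 35.4 and 29.6) lay within 2-fold on all arrays. Slc18a3, the vesicular acetylcholine transporter, read 50.8, 33.9 and 41 on its brightest probe set and 16.8, 30.1 and 39.9 on the other, which was 2.38-fold higher in the carcinoid than at 8 weeks. The vesicular monoamine transporter of chromaffin cells, Slc18a1, was under the floor on every array (1.5, 3.13 and 1.8).

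Slc6a8, the creatine transporter, read 50.9, 31.2 and 22, 2.31-fold lower in the carcinoid than at 8 weeks. The glycine transporter Slc6a5 read 26.3, 14.7 and 7.3, at least 2.12-fold lower in the carcinoid. Slc6a6, the taurine transporter, went the other way. It read 37.5, 66.4 and 91.6, lowest at 8 weeks and 2.44-fold higher in the carcinoid. By brightest probe set, Slc6a6 was the only member of the class at least 2-fold higher in any comparison. In all, 0 of 13 were at least 2-fold higher and 4 lower at 16 against 8 weeks, 1 higher and 5 lower in the carcinoid against 8 weeks, and 0 and 0 between carcinoid and 16 weeks. The shares of all genes, higher then lower, were 13.9% and 12.9%, 14.6% and 13.7%, and 9.41% and 9.29%. As deposited, 1 was higher and 1 lower in each comparison with 8 weeks. Those shares of all genes were then 22.7% and 6.32%, and 26.4% and 5.91%. The class medians were -0.74, -0.60 and -0.07, and as deposited -0.22, 0.01 and -0.01, so the carcinoid median against 8 weeks changed sign with scaling. Of 7 neuron and glia markers, 3, 2 and 6 reached the floor (summed intensity 177, 121 and 175). The leukocyte and enterocyte sums given above were highest at 8 weeks, the enterocyte sum with its markers in both directions. What part any of these had was not tested.

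Sugar and polyol transporters comprised 10 genes, 5 of which reached the floor on all arrays. Slc2a1, the widely expressed glucose transporter, read 204, 70.3 and 132. It was high at 8 weeks and in the carcinoid and 2.91-fold lower at 16 than at 8 weeks. The deposited values, 135.9, 74.7 and 161.9, lay under 2-fold apart between 8 and 16 weeks. A second probe set read 16, 6.93 and 26.3, also lowest at 16 weeks but highest in the carcinoid. Slc2a3, the high-affinity glucose transporter of neurons, read 21.8, 44.2 and 20 and was highest on the array where Slc2a1 was lowest, 2.03-fold higher at 16 than at 8 weeks and 2.21-fold lower in the carcinoid than at 16 weeks. Its other probe set was under the floor on every array.

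The fructose transporter Slc2a5 read 9.57, 33.4 and 12.5. It was at least 2.7-fold higher at 16 than at 8 weeks and 2.67-fold lower in the carcinoid than at 16 weeks, with a second probe set under the floor throughout. Slc2a4, the insulin-responsive glucose transporter, read 30.1, 13.4 and 22.9, 2.25-fold lower at 16 than at 8 weeks. A second probe set read 15.3, 25.7 and 8.9 and went in the opposite direction, 1.69-fold higher. No direction can be given for Slc2a4. The sodium-coupled glucose transporter Slc5a1 read 62.8, 44 and 34.7 on its brightest probe set and 46.6, 36 and 34.8 on the other. These probe sets shared an order after normalization but not as deposited, with differences under 2-fold. The inositol transporter Slc5a3 read 12, 17.2 and 17.2, under the floor at 8 weeks alone.

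Slc37a4, which moves glucose 6-phosphate into the endoplasmic reticulum, showed the widest disagreement of any member at 16 against 8 weeks. The brightest probe set read 42, 38.9 and 47.6 and hardly differed, and the other read 7.3, 70.4 and 36.5, at least 5.68-fold higher at 16 weeks. Both carry the same accession. The class had medians of -0.11, -0.12 and 0.01, or 0.35, 0.25 and 0.08 as deposited, so the first and second changed sign.

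Transporters of protons, bicarbonate, chloride and sodium comprised 13 genes. Here 5 of 9 carriers compared were at least 2-fold higher at 16 than at 8 weeks and 1 was lower, where 13.9% of all genes were higher and 12.9% lower. The class median of 1.20 depended on the settings. It was 1.28 with scaling by the median and 1.39 as deposited, while the median of all genes was 0.00, 0.08 and 0.38. It was 0.44 without probe sets made from expressed sequence tags (3 of 7 higher, against 14.2% of all genes). With the floor at the 25th percentile it was 0.44 (5 of 11, against 21.4%), and with the floor at 30 0.28 (2 of 5, against 6.55%). Over each probe set it was 0.28 (5 of 14, against 14.2% of all such probe sets). With log2 of the value plus the floor it was 0.17 (3 of 13, against 8.68% of all genes). The electrogenic sodium-bicarbonate cotransporter Slc4a4, which brings bicarbonate into secretory epithelial cells, read 4.3, 36.5 and 61.3. It was under the floor at 8 weeks, clearly above it on the other arrays, and highest in the carcinoid. Slc4a7, an electroneutral sodium-bicarbonate cotransporter, read 34.9, 92.7 and 53, and Slc4a3, a chloride-bicarbonate exchanger, read 38.8, 89 and 64.2. These carriers shared an order, lowest at 8 weeks and highest at 16 weeks, and both were over the floor on every array. Slc4a1, the anion exchanger of red cells, read 102, 74.5 and 87.1 and differed little. Of its other probe sets, 1 read 18.1, 17.3 and 33.5, or 1.85-fold higher in the carcinoid than at 8 weeks, and the last read 17.9, 2.73 and 8.07. The 3 other erythroid markers on the array, Hbb, Hbb-b1 and Alas2, also reached the floor on every array.

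The sodium-proton exchanger Slc9a3 read 1.27, 29.6 and 13.3. It was at least 2.39-fold higher at 16 than at 8 weeks and 2.23-fold lower in the carcinoid than at 16 weeks, where its value lay just above the floor. The related gastric exchangers Slc9a2 (1.27, 1.7 and 9) and Slc9a4 (5.07, 3.3 and 0.967) were under the floor on every array. Among the cation-chloride cotransporters, Slc12a7 read 9.43, 29.7 and 38.8, at least 2.39-fold higher at 16 weeks and at least 3.13-fold higher in the carcinoid than at 8 weeks. Slc12a3, the thiazide-sensitive sodium-chloride cotransporter known from the kidney, read 45.9, 4.93 and 5.27, over the floor at 8 weeks alone and at least 3.7-fold above both other arrays. Its second probe set was under the floor throughout.

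Slc12a2, the sodium-potassium-chloride cotransporter of secretory epithelia, read 22.6, 23.6 and 28.8 and did not differ by 2-fold. A further probe set of Slc12a2 read 8.9, 21.1 and 10.3, above the floor at 16 weeks alone. Slc12a4 read 19.1, 25.9 and 5.77 and was at least 2.09-fold lower in the carcinoid than at 16 weeks. The other Slc12a4 probe set read 33.4, 5.67 and 5.67, at least 2.7-fold lower at 16 than at 8 weeks, where the brightest was 1.36-fold higher. Between carcinoid and 8 weeks this class held 2 higher and 1 lower among 9 (14.6% and 13.7% of all genes), with its median at 0.35. Between carcinoid and 16 weeks it held 0 higher and 2 lower among 8 (9.41% and 9.29% of all genes). Its median of -0.12 there became 0.02 as deposited. Of 8 parietal cell markers, 7, 6 and 5 reached the floor (summed intensity 2311, 2559.5 and 2044), and Kcnq1 was under it on all arrays. Their part in the values of this class was not tested.

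**Figure D3:**
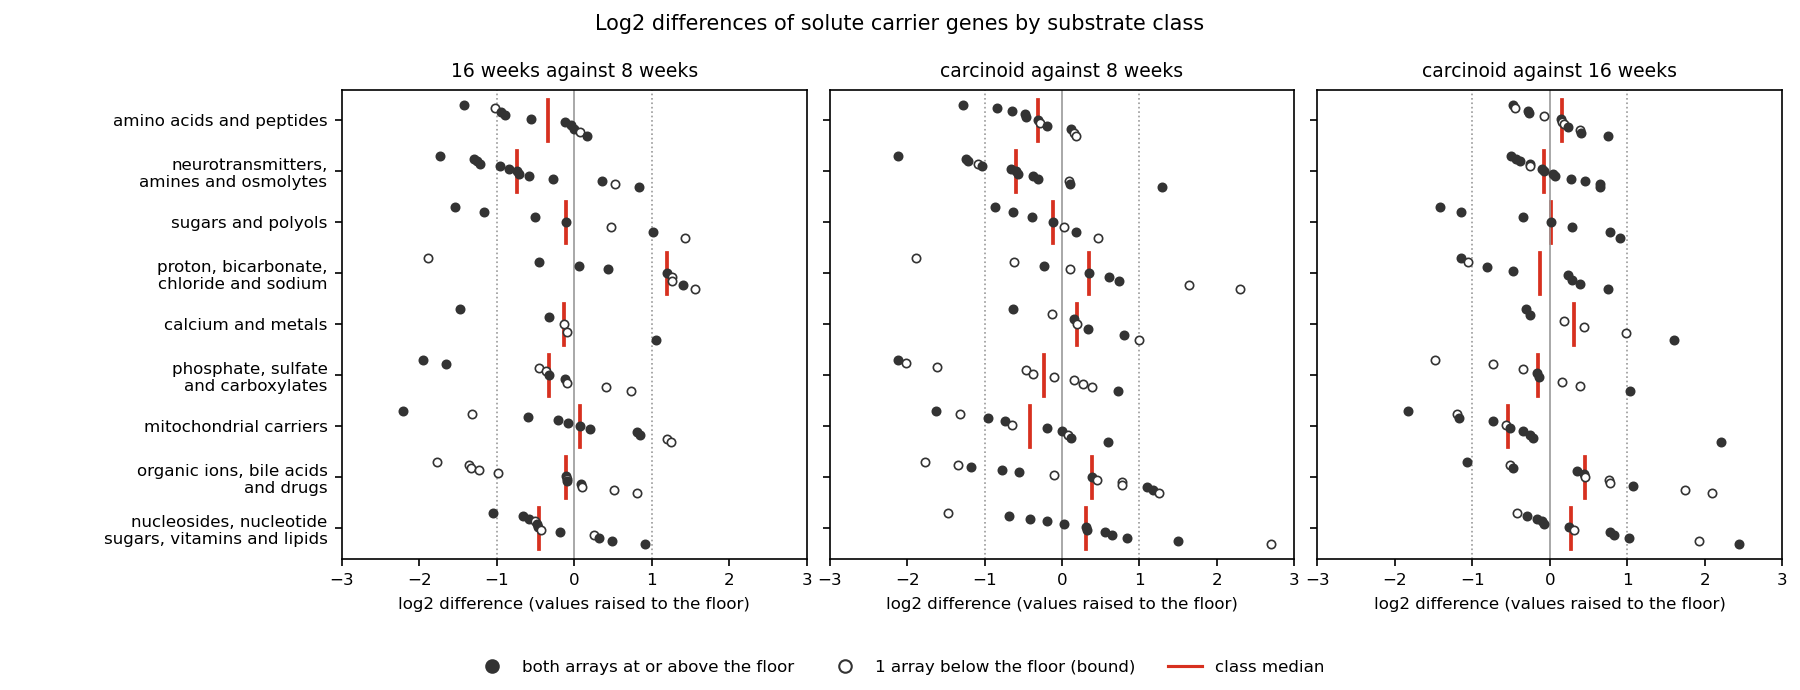
Log2 differences (values raised to the floor) of the solute carrier genes by substrate class in each comparison. Filled points were at or above the floor on both arrays, open points on 1 of them (a bound), red bars are class medians and dotted lines mark 2-fold; in 16 against 8 weeks the proton and bicarbonate class has its median at 1.20 and the neurotransmitter class at -0.74.

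Transporters of calcium and metals comprised 11 genes, and 3 reached the floor on every array. Slc8a1, the sodium-calcium exchanger best known from heart muscle, read 79.2, 28.7 and 87.8. Its signal was lowest at 16 weeks, 2.76-fold under 8 weeks and 3.06-fold under the carcinoid. A second probe set of Slc8a1 read 29.8, 7.53 and 20.1 and was likewise lowest at 16 weeks, at least 2.4-fold under 8 weeks. Another pair, reading 20.8, 10.1 and 1.37 and 18.3, 3.5 and 0.867, was over the floor at 8 weeks alone. The neuronal exchanger Slc8a2 read 90.8, 72.6 and 58.6, within 2-fold. Slc41a3, related to magnesium transporters, read 15.6, 32.3 and 27.1 and was 2.07-fold higher at 16 than at 8 weeks. The zinc transporter Slc30a2 read 5.57, 6.63 and 24.6, over the floor in the carcinoid alone. The iron transporters Slc11a2 (9.17, 11.1 and 14.2) and Slc40a1 (13.3, 1.2 and 16.8) and the calcium exchanger Slc24a2 (13.5, 1.7 and 5.87) gave values near the floor. The class had medians of -0.13, 0.19 and 0.31, and as deposited 0.22, 0.74 and 0.51.

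Transporters of phosphate, sulfate and carboxylates comprised 15 genes, and only Slc16a3 and Slc13a2 reached the floor on all arrays. Slc13a2, which takes up citrate and succinate, read 62.1, 16.1 and 14.3, high at 8 weeks and near the floor elsewhere. Slc5a5, the iodide transporter of thyroid and gastric mucosa, read 49.8, 15.7 and 6.57 and had the same order. The phosphate transporter Slc34a1 had 5 probe sets. The brightest read 37.8, 34.7 and 11, and was at least 3.05-fold lower in the carcinoid than at 8 weeks and at least 2.8-fold lower than at 16 weeks. Another pair read 37, 28 and 9.43 and 37, 13.7 and 10.3, also under the floor in the carcinoid alone, whereas the last pair (6.93, 5.67 and 13.7; 5.8, 20.8 and 3.3) did not share this order. Slc16a3, which exports lactate from glycolytic cells, read 31.7, 25.4 and 52.3 and was 2.06-fold higher in the carcinoid than at 16 weeks. The related Slc16a1 read 2.07, 20.5 and 5.17, over the floor at 16 weeks alone. The sulfate transporters Slc26a1 (12.3, 11.5 and 16.2) and Slc26a2 (9.05, 16.5 and 14.9), the phosphate transporter Slc20a2 (13.3, 10.6 and 7.3), Slc17a1, Slc16a6 and Slc13a1 read 17.1 or less on every array. The class medians were -0.32, -0.24 and -0.16, and as deposited 0.00, -0.01 and -0.05.

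The mitochondrial carrier family, Slc25, comprised 12 genes, of which 7 reached the floor on every array and 1, Slc25a30, on none. It includes Slc25a17, which acts in the peroxisome. Slc25a5, an exchanger of ADP for ATP across the inner membrane, read 416, 753 and 453, highest at 16 weeks by under 2-fold. The related Slc25a4, which does the same work and predominates in muscle, read 40.2, 46.4 and 13. It was close to equal at 8 and 16 weeks and 3.09-fold and 3.57-fold lower in the carcinoid, where it lay just above the floor. With the floor at 30 these log2 differences of -1.63 and -1.83 shrank to -0.42 and -0.63. The array measured Slc25a4 and Slc25a5 with 1 probe set each, and cross-hybridisation between such close relatives was not tested. Slc25a3, which brings phosphate in for ATP synthesis, read 199, 208 and 175 and differed little between arrays.

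Slc25a1 exports citrate from mitochondria for fatty acid synthesis. It read 80.3, 17.4 and 80.3, so 16 weeks stood 4.62-fold under both other arrays. As deposited the values were 58.6, 18.5 and 95.8. The oxoglutarate carrier Slc25a11 read 33, 57.7 and 49.8 on 1 probe set and 17.1, 17.3 and 13.8 on the other, all within 2-fold. The dicarboxylate carrier Slc25a10 read 54.4, 46.9 and 32.8, and a second probe set read 3.9, 37.2 and 32.6, at least 3-fold higher at 16 than at 8 weeks. The carnitine-acylcarnitine carrier Slc25a20, which admits fatty acids for oxidation, read 10.5, 28.5 and 7.03, over the floor at 16 weeks alone. Slc25a17 read 8.4, 29.5 and 13.1, also highest at 16 weeks. Slc25a14 read 30.9, 5.77 and 11.6 on its brightest probe set and 4.43, 18 and 4.57 on the other, so its probe sets peaked on different arrays. Slc25a26 read 33.7, 22.2 and 17.4, lowest in the carcinoid by under 2-fold. Slc25a23 read 19.4, 18.3 and 3.67 and was under the floor in the carcinoid alone, at least 1.56-fold below 8 weeks and at least 1.47-fold below 16 weeks. Between carcinoid and 16 weeks, 9 of the 10 compared lay below 0, where 1631 of 3295 genes did, and 1, Slc25a1, lay above. The 9 included the bounds of Slc25a20 and Slc25a23, and Slc25a3 and Slc25a11 were only 1.19-fold and 1.16-fold lower. The class median was -0.54, against 0.01 over all genes (as deposited -0.35, against 0.09). The medians of the comparisons with 8 weeks were 0.07 and -0.42, and as deposited 0.66 and 0.05.

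Transporters of organic ions, bile acids and drugs comprised 16 genes. Only 3 of them, Slc22a7, Slc22a13 and Slc10a2, reached the floor on every array (18.8%, against 36.9% of all genes). The bile acid transporter Slc10a2, known from the ileum, read 19.9, 21.1 and 44.8 and was 2.25-fold and 2.12-fold higher in the carcinoid than at 8 and 16 weeks. Its other probe set reached the floor in the carcinoid alone (1.63, 2.17 and 14.8). Slco1a4, an organic anion transporter of liver and brain vessels, read 24.7, 7.2 and 52.9, also highest in the carcinoid. Slco2a1, which takes up prostaglandins, read 7.67, 21.7 and 29.5 and was at least 2.38-fold higher in the carcinoid than at 8 weeks. The other probe set of Slco2a1 read 2.07, 19 and 3.87, over the floor at 16 weeks alone. Slc22a18 read 31.8, 11.1 and 41.6, under the floor at 16 weeks alone and there at least 2.56-fold under 8 weeks and 3.36-fold under the carcinoid.

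The organic anion transporter Slc22a6, known from the kidney, read 42.3, 2.17 and 12, and Slco2b1 read 31.5, 4.4 and 5.27. Both were over the floor at 8 weeks alone. Slco1a5 read 29, 6.03 and 17, at least 2.34-fold lower at 16 than at 8 weeks. Slc22a13 read 41.1, 38.2 and 18.2, lowest in the carcinoid by 2.26-fold and 2.1-fold. The liver transporter Slc22a7 read 71.3, 67.1 and 48.4 on its brightest probe set and 25.2, 23.4 and 32.6 on the other, in each case within 2-fold. The organic cation transporters Slc22a2 (11, 13.3 and 17) and Slc22a3 (4.55, 4.93 and 21.3), the related Slc22a25 (6.8, 1.7 and 21.1), the carnitine transporter Slc22a5 (4.8, 17.7 and 5.93) and the bile acid transporter Slc10a1 (13.3, 11.6 and 2.63) read at most 21.3. The other probe set of Slc22a3 read 1.27, 16.4 and 1.7, over the floor at 16 weeks alone. This class had 0 higher and 4 lower of 12 at 16 against 8 weeks, 3 higher and 3 lower of 13 in the carcinoid against 8 weeks, and 3 higher and 1 lower of 11 against 16 weeks. These counts stand beside 13.9% and 12.9%, 14.6% and 13.7%, and 9.41% and 9.29% of all genes. The medians were -0.11, 0.39 and 0.45, and as deposited 0.11, 0.78 and 0.52.

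Carriers of nucleosides, nucleotide sugars, vitamins and lipids comprised 14 genes, 8 of them over the floor on every array. Slc44a4, a choline transporter-like protein of epithelia that also carries thiamine pyrophosphate, read 11.1, 14.7 and 80.5. It stood near the floor on both loxtidine arrays and 5.48-fold or more above them in the carcinoid, the widest separation of the carcinoid array among all 124 genes. As deposited the values were 9.1, 15.5 and 96, and with the floor at 30 the log2 difference from each loxtidine array was still 1.42. Slc44a4 had 1 probe set, so no second reading of the same gene exists on this array. Slc5a6, which takes up biotin and pantothenate, read 16.7, 10.2 and 47.1 on its brightest probe set. The other read 32.2, 3.93 and 18.3, lowest at 16 weeks like the first but highest at 8 weeks, so only the low value at 16 weeks was shared. Epithelial mucous markers, 6 of 6 over the floor on every array, had summed intensities of 1376, 1229 and 1588, and their part in the Slc44a4 value was not tested.

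The riboflavin transporter Slc52a3 read 34.4, 16.6 and 5.37, lower at 16 weeks by 2.07-fold and in the carcinoid by at least 2.77-fold. The folate carrier Slc19a1 read 105, 70.1 and 65.4 and, on its other probe set, 38.2, 29.4 and 28.7. These readings had the same order and stayed within 2-fold. Slc23a3, a relative of the ascorbate transporters, read 36.4, 26.2 and 53.2, 2.03-fold higher in the carcinoid than at 16 weeks. The equilibrative nucleoside transporters Slc29a1 (34.1, 24.7 and 42.3) and Slc29a2 (31.2, 58.8 and 55.8) differed in order and lay within 2-fold, as did the concentrative transporter Slc28a1 (70.5, 44.5 and 53). The fatty acid transporter Slc27a2 read 37.8, 33.3 and 59.1. Of the Slc35 family of the Golgi and endoplasmic reticulum, Slc35b1 read 51.2, 71.7 and 64, with a second probe set at 9.05, 29.9 and 11.3. The CMP-sialic acid transporter Slc35a1 read 28.8, 35.8 and 29.4, with a second probe set at 19.1, 1.4 and 9.43. Slc35f6 read 17.6, 2.47 and 15.4. The class medians were -0.45, 0.32 and 0.28, and as deposited -0.03, 0.85 and 0.36.

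The 28 genes under the floor on every array by their brightest probe set were Slc3a1, Slc6a17, Slc6a18, Slc6a20a, Slc7a3, Slc17a7, Slc18a1, Slc32a1, Slc2a2, Slc37a1, Slc5a2, Slc12a1, Slc12a5, Slc9a2, Slc9a4, Slc30a1, Slc30a4, Slc41a2, Slc8a3, Slc13a3, Slc16a12, Slc16a7, Slc16a8, Slc25a30, Slco1a1, Slco1a3, Slc27a1 and Slc28a2. Several are known from kidney, liver or brain, such as the renal cotransporter Slc12a1 and the liver glucose transporter Slc2a2. As for Hdc, low RNA and poor binding of a rat probe cannot be told apart for these genes.

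Probe sets of the same carrier often disagreed. Of the 42 genes with several, 23, 22 and 25 had 2 or more with a difference to compare, in the order of comparisons used above. The signs were opposite in 9, 15 and 9 of these genes, and the probe sets lay over 1 apart on the log2 scale in 10, 11 and 9. Among the carriers at least 2-fold apart, another probe set had the same direction for Slc3a2, Slc2a1 and Slc8a1 between 16 and 8 weeks, and for Slc10a2 in both comparisons of the carcinoid. The same held for Slc8a1, Slc5a6 and Slc34a1 between carcinoid and 16 weeks and for Slc34a1 between carcinoid and 8 weeks, though 1 of the 4 other Slc34a1 probe sets had the opposite sign each time. The direction was opposite for Slc3a2 and Slc5a6 between carcinoid and 8 weeks and for Slc2a4 and Slc25a14 between 16 and 8 weeks. A shared direction did not mean a like size. At 16 against 8 weeks the other Slc3a2 probe set was only 1.1-fold lower and that of Slc2a1 at least 1.29-fold lower. Between carcinoid and 16 weeks that of Slc5a6 was at least 1.48-fold higher. Each lay over 1 from the brightest on the log2 scale. So did that of Slc6a4 at 16 against 8 weeks, with a bound of 0.00.

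**Figure D4:**
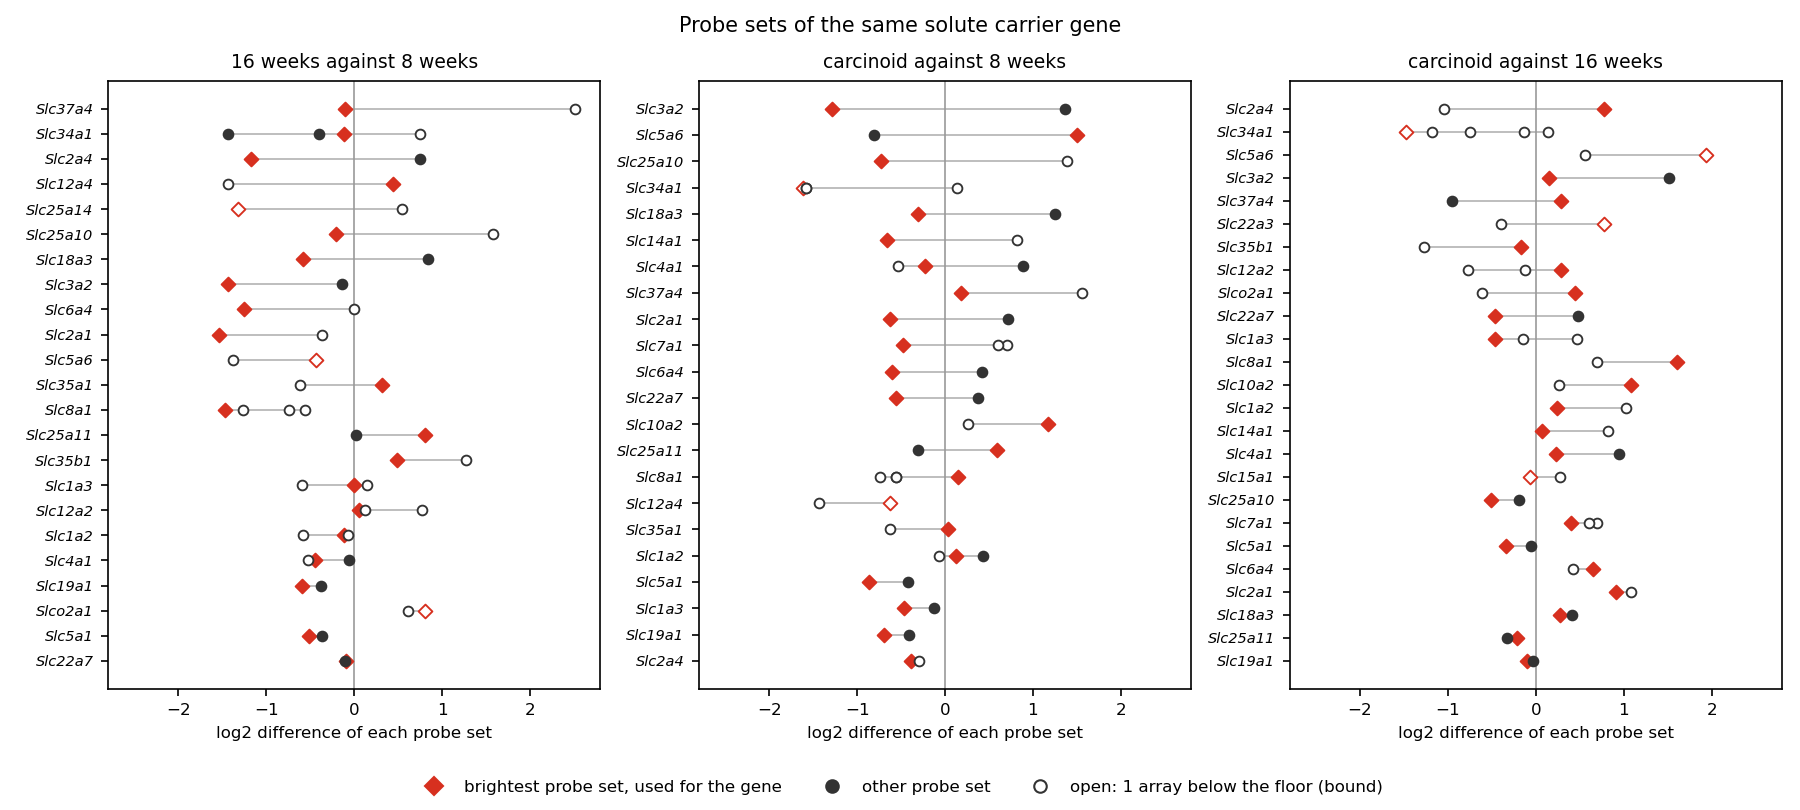
Log2 difference of each probe set, for solute carrier genes with 2 or more probe sets compared, in each comparison. Red diamonds are the brightest probe set of the gene, grey lines join probe sets of a gene and open marks are bounds; in 15 of 22 genes the probe sets lay on both sides of 0 in carcinoid against 8 weeks.

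By brightest probe set, and with bounds included, some carriers set 1 array apart from the rest by 2-fold or more. The 8-week array had 10 above (Slc13a2, Slc12a3, Slc22a6, Slc6a9, Slc5a5, Slco2b1, Slc25a14, Slc3a2, Slc14a2 and Slc52a3) and 2 below (Slc4a4 and Slc12a7). That was 10.4% and 2.08% of 96, against 6.26% and 7.08% of 3658 genes over the floor on any array. The 16-week array had 5 above (Slc2a5, Slc25a20, Slc25a17, Slc9a3 and Slc2a3) and 3 below (Slc25a1, Slc8a1 and Slc22a18). The carcinoid array had 4 above (Slc44a4, Slc5a6, Slco1a4 and Slc10a2) and 3 below (Slc25a4, Slc34a1 and Slc22a13). Those shares were 5.21% and 3.12% at 16 weeks and 4.17% and 3.12% in the carcinoid, against 3.64% and 2.82% and then 3.83% and 3.31% of all genes. The separations of Slc12a3, Slc22a6, Slco2b1, Slc25a14, Slc4a4, Slc12a7, Slc25a20, Slc22a18 and Slc34a1 were bounds. On their other probe sets Slc3a2 was highest in the carcinoid, Slc25a14 at 16 weeks and Slc5a6 at 8 weeks.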

How the data were processed

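RNA of 3 samples was hybridised to 1 array each. The deposited values are linear intensities, 1 for each probe set on each array; the algorithm and scaling behind it are not given in the sources used here. Groups came from the sample descriptions. Gene symbols came from the platform annotation: of 8740 non-control probe sets, 7006 had 1 symbol, 308 several and 1426 none, and 2 probe sets with several symbols held a solute carrier and were left out. Intensities were quantile-normalized over non-control probe sets, which forces 1 distribution on each array. The floor was the pooled median, 12.4. A gene was represented by whichever of its probe sets was brightest on average as deposited. A difference counted from 2-fold, with bounds included. Every carrier over the floor on at least 1 array could be named with values; the 28 others were named only, except Slc9a2, Slc9a4 and Slc18a1, given for their gastric or endocrine role. Substrate classes followed gene families. Precision is limited by there being 1 array a group. The members, classes and marker lists were chosen with earlier results of these data known. Alternatives were other scalings, floors, probe set choices and kinds of probe set. The steps were tested on arrays with differences planted in bright probe sets only. That test did not cover values near the floor, bounds or the error of a single gene. Python 3.11, numpy 2.4.6 and pandas 2.3.3 were used.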

Additional observations from a re-analysis of the deposited data

How the results depend on the processing

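Counts of carriers at least 2-fold apart moved with the scaling and with the floor, and the cause was not tested. As deposited, 9 were lower at 16 against 8 weeks, and 18 were higher and 9 lower in the carcinoid against 8 weeks. These were 10.5%, 19.6% and 9.78% of the carriers compared, against 6.32%, 26.4% and 5.91% of all genes. With the floor at the 25th percentile (4.2), 16 (16 against 8 weeks) and 20 (carcinoid against 8 weeks) were higher, and 23 higher and 18 lower between carcinoid and 16 weeks. Of 114 compared each time, these were 14%, 17.5%, 20.2% and 15.8%, against 21.4%, 22%, 17.7% and 16.7% of all genes. With the floor at 30 the counts, higher then lower, were 2 and 8, 3 and 4, and 3 and 0 in the order of the report. Of 54, 54 and 48 compared, these were 3.7% and 14.8%, 5.56% and 7.41%, and 6.25% and 0%. The shares of all genes were 6.55% and 6.49%, 7.47% and 6.73%, and 2.84% and 2.23%. With log2 of the value plus the floor, 6 were higher at 16 against 8 weeks and 5 lower between carcinoid and 16 weeks. These were 4.84% and 4.03% of 124, against 8.68% and 5.47% of all genes. Over probe sets made from expressed sequence tags, which cover fewer genes, the counts were 6 and 4, 3 and 4, and 3 and 4. Of 26, 25 and 26 compared, these were 23.1% and 15.4%, 12% and 16%, and 11.5% and 15.4%. The shares of all genes were 14.1% and 10.8%, 15% and 10.9%, and 9.15% and 7.68%. Over the other probe sets 5 of 70 were higher at 16 against 8 weeks (7.14%, against 14.2%). Scaling by the median, the median of a gene's probe sets, and counting each probe set kept every count within 1.5 times. Of 71 differences of at least 2-fold in single carriers, 54 were still at least 2-fold as deposited, 68 with scaling by the median and 20 of the 59 that had a value with the floor at 30. Direction reversed for Slc2a4 at 16 against 8 weeks without tag-derived probe sets (0.75) and for Slc3a2 in the carcinoid against 8 weeks with the median of probe sets (0.04). Normalization without the 8-week array was chosen after seeing the data. No paired analysis was possible because each group has 1 array.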
